A study of Homo sapiens with 12 samples.

Results

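This section describes 10 genes that lie near each other on the long arm of human chromosome 15, in bands q23 to q24 around HEXA: LARP6, THSD4, MYO9A, HEXA, ARIH1, BBS4, ADPGK, NEO1, CLK3 and SCAMP5, in their order along the chromosome. They were chosen by their log2 levels in the 4 groups, with earlier results of these same arrays known, as neighbours with a joint shift, so their own values are a description, and the counts of called genes among them are printed beside the same counts over all genes with nothing read from them. Each gene was represented by the probe set that carries its symbol alone and has the highest mean over the arrays. All 10 were found, each with 1 such probe set, out of 18417 genes measured. The stretch of RefSeq genes from LARP6 to SCAMP5 holds 40 other measured genes, which are given beside them.

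Expression was measured in total RNA of human pancreatic ductal adenocarcinoma cell lines on Affymetrix arrays, 3 arrays for each of 4 groups. AsPC1, raised from ascites, and BxPC3, raised from a primary tumour, are the parental lines. AsPC1-R and BxPC3-R are derivatives resistant to cisplatin, a platinum drug that crosslinks DNA, and were kept in 1.67 µM and 0.60 µM of it. The last passage of the derivatives before RNA was taken was free of drug, so no group was harvested in cisplatin. Each line has 1 derivative, and the labels do not tie the arrays of a group to separate cultures, so the p-values below rest on the spread between these arrays alone, which may be technical.

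The genes share a place and not a pathway. HEXA encodes the alpha subunit of lysosomal beta-hexosaminidase A, which trims gangliosides, and whose inherited loss causes Tay-Sachs disease. ADPGK phosphorylates glucose with ADP in place of ATP. BBS4 is a subunit of the BBSome, a coat that moves membrane proteins into and out of cilia, and SCAMP5 is a membrane protein of secretory and recycling vesicles. NEO1 (neogenin) is a surface receptor for netrins and repulsive guidance molecules, THSD4 is a secreted protein that binds fibrillin microfibrils, and LARP6 binds a stem-loop in the mRNAs of type I collagen. MYO9A is an unconventional myosin, a motor that moves on actin, ARIH1 is a ubiquitin ligase that works with cullin complexes, and CLK3 is a kinase of SR splicing factors.

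The starts of LARP6, BBS4 and ADPGK are shown because these genes had the largest differences between AsPC1-R and AsPC1 among the 9 members with an entry in the RefSeq promoter table (GRCh38.p14). Each runs from 250 bases before the start of the gene to 50 after it, 5′ to 3′ on the strand of the gene, and capitals mark matches to 4 short motifs, on either strand. LARP6 lies at chr15:70854108-70854407 on the minus strand, BBS4 at chr15:72685957-72686256 on the plus strand and ADPGK at chr15:72783709-72784008 on the minus strand.
LARP6: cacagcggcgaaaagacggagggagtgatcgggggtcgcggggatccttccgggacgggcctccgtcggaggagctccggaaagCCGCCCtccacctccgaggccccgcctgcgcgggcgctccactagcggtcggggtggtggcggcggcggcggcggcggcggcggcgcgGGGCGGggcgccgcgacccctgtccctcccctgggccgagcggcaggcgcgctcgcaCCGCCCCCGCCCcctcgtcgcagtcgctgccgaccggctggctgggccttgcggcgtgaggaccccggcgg
BBS4: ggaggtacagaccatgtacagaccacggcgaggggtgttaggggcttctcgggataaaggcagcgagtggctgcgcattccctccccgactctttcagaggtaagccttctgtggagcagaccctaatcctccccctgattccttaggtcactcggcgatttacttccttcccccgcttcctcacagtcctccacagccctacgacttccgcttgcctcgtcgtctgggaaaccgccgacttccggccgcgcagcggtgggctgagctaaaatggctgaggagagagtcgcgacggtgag
ADPGK: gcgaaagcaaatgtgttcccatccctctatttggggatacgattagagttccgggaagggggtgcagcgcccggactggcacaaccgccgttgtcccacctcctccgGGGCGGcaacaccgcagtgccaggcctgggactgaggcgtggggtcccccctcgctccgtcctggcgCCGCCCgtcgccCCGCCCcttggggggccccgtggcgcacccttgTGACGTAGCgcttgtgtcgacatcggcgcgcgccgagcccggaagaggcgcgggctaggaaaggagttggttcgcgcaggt
The motifs were GGGCGG (bound by SP1), CACGTG (the E-box of TFEB and MYC), TGACTCA (AP-1) and TGACNNNGC (the core of the antioxidant response element), and in these 3 promoters no match of one overlapped a match of another. GGGCGG was in 6 of the 9 promoters, 4 times in LARP6 and 3 times in ADPGK, in 44.95% of all 35116 promoters of the table and in 59.99% of the 14239 that belong to measured genes. TGACNNNGC was in 1 of the 9, ADPGK, against 13.35% of all and 14.6% of those of measured genes. CACGTG was in 1, MYO9A, against 7.26% and 8.88%. TGACTCA was in 0 of the 9, in 4.95% of all and in 3.55% of those of measured genes. BBS4 held none of the 4 motifs in this window. The median G and C content was 67.0% over the 9 promoters, 63.0% over those of measured genes and 58.7% over all, and it ran from 80.0% for LARP6 to 43.0% for THSD4. These are descriptions of letters, and no factor's binding was measured.

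All levels below are log2 values as deposited, so a difference of 1 is a 2-fold change in signal. Array medians ran from 6.48 to 6.65, and precision is limited by there being 3 arrays in each group. SMAD4 and CDKN2A, genes known to be lost from the BxPC3 genome, still gave mean levels of 4.70 and 6.22 in BxPC3, so differences between levels up to 6.22 are uncertain in size. Every mean of the 10 genes lay above that. CDKN2A was still called lower in BxPC3-R than in BxPC3 by limma, at -0.47 (SE 0.14, adjusted p = 0.0249). A call at such levels, and not its size alone, is therefore uncertain. In the same comparison CLK3 and SCAMP5, at higher levels, were called at -0.43 each. All 7 markers of ductal epithelium lay above the median of all values, 6.55, in every group, from KRT7 at 7.02 in AsPC1 to EPCAM at 13.29. Of 5 leukocyte markers CD68 alone lay above it, and PTPRC read 3.19 to 3.27 in all groups. Among 6 fibroblast markers 3 did in AsPC1, 2 in AsPC1-R and 1 in each of BxPC3 and BxPC3-R, with a summed level (log2 of the summed linear signals) of 11.64 to 11.82, 10.72 to 10.92, 8.61 to 8.75 and 8.85 to 8.97. LUM carried most of that difference, at 11.55, 10.51, 4.91 and 6.45 in the same order, while DCN read 3.83 to 4.10. Endothelial markers were above the median for 0 of 4 genes in AsPC1 and AsPC1-R, 2 in BxPC3 and 1 in BxPC3-R, and CDH5 read 9.34 in BxPC3 against 6.02 to 6.67 in the other groups. The part of these markers in the results was not tested, and in bulk RNA fewer cells of a type and less RNA per cell cannot be told apart.

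BxPC3 replicate 2 stood apart from its group. A check added once the values were known took the 50 transcripts that most exceeded BxPC3-R in AsPC1, and 50 of 50 peaked on replicate 2 among the BxPC3 arrays. The intestinal cadherin CDH17, for example, read 9.00 there against 4.99 and 4.47. For 8 of the 10 genes that array held the highest of the 3 BxPC3 values. Of these, BBS4 and NEO1 had higher means in AsPC1 than in BxPC3, as CDH17 did at 13.28 in AsPC1. LARP6, THSD4, HEXA, ADPGK, CLK3 and SCAMP5 had lower means in AsPC1 than in BxPC3. The cause was not tested. Counts and medians that involve BxPC3 are therefore given with and without replicate 2, and single genes where a call changes.

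HEXA was low in AsPC1 and had overlapping levels in AsPC1-R and BxPC3. The 3 AsPC1 arrays read 7.42, 7.03 and 7.83, the AsPC1-R arrays 9.41, 9.49 and 9.31, the BxPC3 arrays 9.29, 9.42 and 9.36 and the BxPC3-R arrays 8.61, 8.79 and 8.76. AsPC1 was low on every array, the AsPC1-R and BxPC3 arrays overlapped, and BxPC3-R lay between. The means were 7.43 ± 0.40, 9.40 ± 0.09, 9.36 ± 0.06 and 8.72 ± 0.10 (SD, n = 3 each). From AsPC1 to AsPC1-R the level of HEXA was 3.94-fold higher, a log2 difference of 1.98 (SE 0.15). From BxPC3 to BxPC3-R it was 1.55-fold lower, a log2 difference of -0.64 (SE 0.15). The parental lines differed by -1.93 (SE 0.15), AsPC1 minus BxPC3. AsPC1-R and BxPC3, whose means were 0.05 apart, did not differ beyond their spread, and the rest of the order, AsPC1 under BxPC3-R under that pair, was kept by every array.

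Across the 10 genes, the AsPC1-R arrays all lay above the AsPC1 arrays for each gene, while the other comparisons were mixed. Absence of overlap in that direction was found for 16.1% of all 18417 genes. By limma at an adjusted p under 0.05, 8 of the 10 were higher in AsPC1-R than in AsPC1 and 0 lower, where 11.6% of all genes were higher and 8.64% lower, and the median log2 difference was 0.48 against -0.05 over all genes. THSD4 and CLK3 were not called. The NEO1 call was lost without any 1 of AsPC1 replicates 2 and 3 and AsPC1-R replicates 1 and 3 (adjusted p = 0.0502 to 0.104). AsPC1 had the lowest mean of the 4 groups for 7 of the 10 genes, BxPC3-R for NEO1 and SCAMP5, and BxPC3 for BBS4. The highest mean lay in AsPC1-R for 6 genes and in BxPC3 for THSD4, ARIH1, ADPGK and CLK3. MYO9A and THSD4 were near ties, with AsPC1 means of 9.26 and 7.85 against 9.26 in BxPC3 and 7.88 in BxPC3-R.

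**Figure D1:**
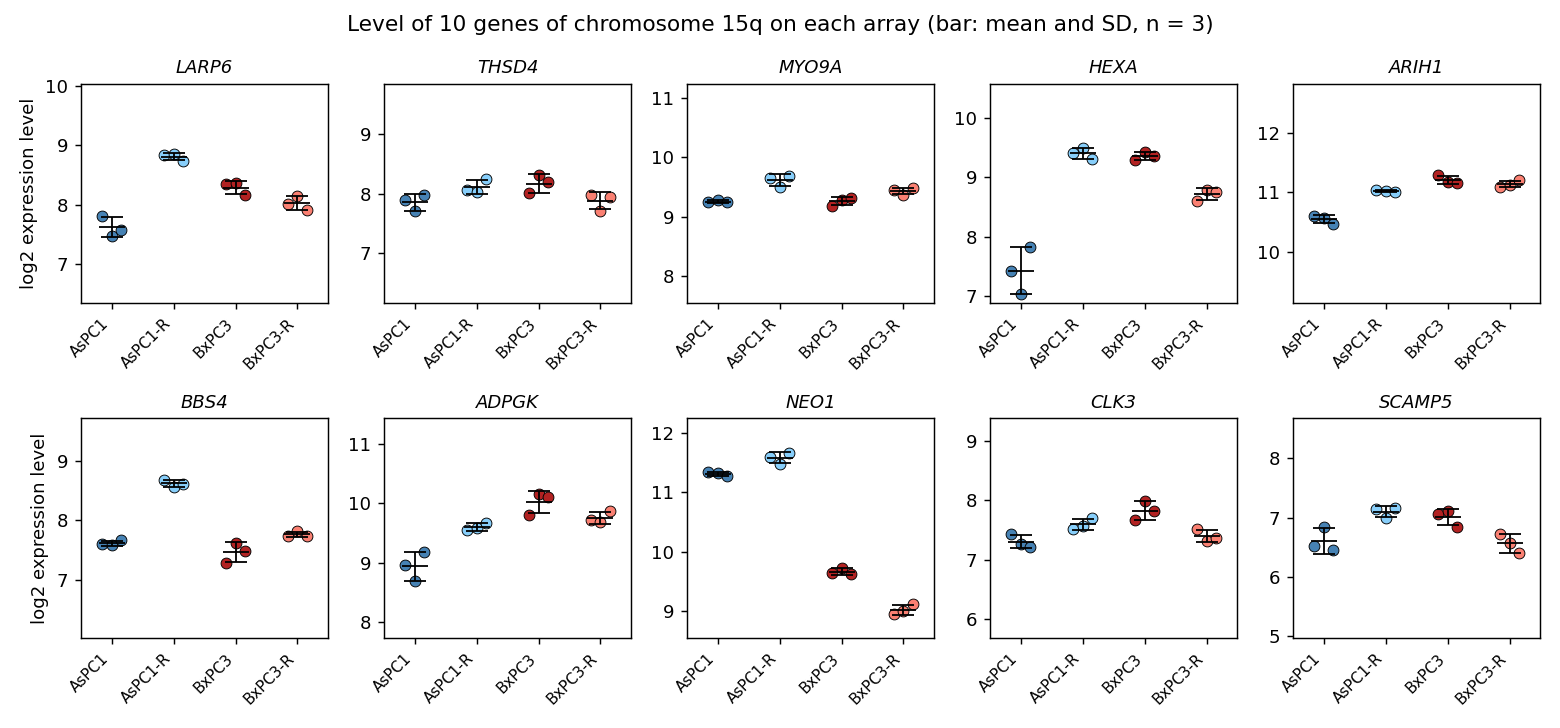
Log2 expression level of the 10 genes on each of the 12 arrays, with 1 panel per gene in chromosome order; points are arrays, the horizontal line and bars are the mean and SD of 3 arrays, and all panels span the same range of log2 units around the gene's own mean. In every panel the AsPC1-R points lie above the AsPC1 points, and HEXA shows the largest gap (7.43 against 9.40), while NEO1 alone is much lower in BxPC3 and BxPC3-R than in AsPC1.

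ADPGK stood lowest in AsPC1 and highest in BxPC3. Its arrays read 8.95, 8.69 and 9.18 in AsPC1, 9.54, 9.59 and 9.67 in AsPC1-R, 9.80, 10.15 and 10.10 in BxPC3 and 9.71, 9.69 and 9.87 in BxPC3-R. The AsPC1 arrays were low on their own, AsPC1-R lay under every BxPC3 array, and BxPC3 and BxPC3-R overlapped. The log2 difference was 0.66 (SE 0.12) from AsPC1 to AsPC1-R, -0.26 (SE 0.12) from BxPC3 to BxPC3-R, and -1.08 (SE 0.12) between AsPC1 and BxPC3. The AsPC1 arrays of ADPGK and HEXA were also the most spread, with SDs of 0.24 and 0.40 against 0.07 and 0.09 in AsPC1-R, and replicate 2 was the lowest and replicate 3 the highest for both.

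BBS4 differed from HEXA in that the parental lines had overlapping levels and AsPC1-R stood above all other groups. The values were 7.60, 7.59 and 7.67 in AsPC1, 8.69, 8.57 and 8.62 in AsPC1-R, 7.29, 7.62 and 7.49 in BxPC3 and 7.73, 7.82 and 7.74 in BxPC3-R. AsPC1-R was the high group on all arrays, and BxPC3-R lay above BxPC3 by a smaller step. BBS4 was 2.01-fold higher in AsPC1-R than in AsPC1, with a log2 difference of 1.01 (SE 0.09), against 0.30 (SE 0.09) from BxPC3 to BxPC3-R and 0.15 (SE 0.09) between AsPC1 and BxPC3.

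SCAMP5 was higher in AsPC1-R and BxPC3 than in the other groups. Its values were 6.52, 6.85 and 6.45 in AsPC1, 7.15, 6.99 and 7.16 in AsPC1-R, 7.06, 7.11 and 6.85 in BxPC3 and 6.73, 6.58 and 6.40 in BxPC3-R. AsPC1-R overlapped BxPC3, AsPC1 overlapped BxPC3-R, and 1 AsPC1 array, at 6.85, reached the lowest BxPC3 array. The log2 differences were 0.49 (SE 0.12) from AsPC1 to AsPC1-R, -0.43 (SE 0.12) from BxPC3 to BxPC3-R and -0.40 (SE 0.12) between AsPC1 and BxPC3. Without BxPC3 replicate 2 the last 2 came to -0.39 and -0.35, and neither passed limma's threshold (adjusted p = 0.0689 and 0.0528). The call from BxPC3 to BxPC3-R was also lost without BxPC3 replicate 1 (adjusted p = 0.0595) or BxPC3-R replicate 3 (adjusted p = 0.0848).

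NEO1 was the member with the opposite order of the lines. The neogenin probe set read 11.34, 11.32 and 11.27 in AsPC1 and 11.60, 11.48 and 11.66 in AsPC1-R, but 9.64, 9.72 and 9.62 in BxPC3 and 8.94, 9.00 and 9.11 in BxPC3-R. No pair of groups overlapped, and both AsPC1 groups lay above both BxPC3 groups. AsPC1 exceeded BxPC3 by 1.65 (SE 0.08), a 3.13-fold higher signal. The difference from AsPC1 to AsPC1-R was 0.27 (SE 0.08), and that from BxPC3 to BxPC3-R was -0.64 (SE 0.08).

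LARP6 was the member with the second-largest difference in AsPC1-R. It read 7.82, 7.48 and 7.58 in AsPC1, 8.84, 8.85 and 8.74 in AsPC1-R, 8.34, 8.36 and 8.16 in BxPC3 and 8.02, 8.15 and 7.92 in BxPC3-R. The 4 groups did not overlap: AsPC1 was lowest, then BxPC3-R, then BxPC3, and AsPC1-R was highest. The difference from AsPC1 to AsPC1-R was 2.27-fold, 1.19 (SE 0.10) on the log2 scale, against -0.26 (SE 0.10) from BxPC3 to BxPC3-R and -0.67 (SE 0.10) between the parental lines. The models of LARP6 and LRRC49 overlap in RefSeq by 780 bases, and LRRC49 was higher by 0.37 in AsPC1-R and by 0.62 in BxPC3-R, so the probe sets of the neighbours did not move together in BxPC3-R.

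THSD4, the fibrillin-binding protein, differed little between the groups. Its levels were 7.89, 7.70 and 7.97 in AsPC1, 8.05, 8.02 and 8.24 in AsPC1-R, 8.00, 8.31 and 8.19 in BxPC3 and 7.97, 7.72 and 7.95 in BxPC3-R. The nearest arrays of AsPC1 and AsPC1-R, at 7.97 and 8.02, lay close. The log2 differences were 0.25 (SE 0.11) from AsPC1 to AsPC1-R, which did not pass limma's threshold, -0.29 (SE 0.11) from BxPC3 to BxPC3-R, which did not either (without BxPC3 replicate 1 it was -0.37 and did, adjusted p = 0.0435), and -0.32 (SE 0.11) between AsPC1 and BxPC3, which did. The last call was lost without BxPC3 replicate 2 (-0.24, adjusted p = 0.118), without BxPC3 replicate 3 (adjusted p = 0.0726) and without AsPC1 replicate 2 (adjusted p = 0.11).

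ARIH1, the cullin-associated ubiquitin ligase, read 10.60, 10.57 and 10.46 in AsPC1 and 11.03, 11.02 and 11.00 in AsPC1-R. BxPC3 gave 11.29, 11.17 and 11.16 and BxPC3-R 11.09, 11.12 and 11.20, which overlapped each other and lay above both AsPC1 groups. The difference was 0.47 (SE 0.08) from AsPC1 to AsPC1-R, -0.07 (SE 0.08) from BxPC3 to BxPC3-R and -0.66 (SE 0.08) between the parental lines. MYO9A had overlapping levels in the parental lines, 9.25, 9.28 and 9.24 in AsPC1 and 9.19, 9.28 and 9.32 in BxPC3. It read 9.66, 9.50 and 9.69 in AsPC1-R and 9.45, 9.38 and 9.48 in BxPC3-R, so both derivatives lay above their parents, by 0.36 (SE 0.08) and 0.17 (SE 0.08). MYO9A was the member for which the difference between these differences did not pass the threshold, and its model overlaps that of SENP8 by 4343 bases. SENP8 was higher by 0.63 in AsPC1-R (SE 0.10, adjusted p = 0.000409 by limma) and by 0.04 in BxPC3-R (SE 0.10), which did not pass. CLK3 read 7.43, 7.27 and 7.21 in AsPC1, 7.52, 7.56 and 7.69 in AsPC1-R, 7.66, 7.98 and 7.82 in BxPC3 and 7.51, 7.31 and 7.36 in BxPC3-R. Its nearest AsPC1 and AsPC1-R arrays read 7.43 and 7.52. The difference of 0.29 (SE 0.10) did not pass limma's threshold, while that from BxPC3 to BxPC3-R was -0.43 (SE 0.10) and that between the parental lines -0.52 (SE 0.10).

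In BxPC3-R against BxPC3 the difference was under 0 for 8 of the 10 members and above 0 for BBS4 and MYO9A. By limma 1 of 10, BBS4, was higher and 4, HEXA, NEO1, CLK3 and SCAMP5, were lower, where 9.75% of all genes were higher and 11.0% lower. All BxPC3-R arrays lay under all BxPC3 arrays for 6 of the 10, and for 18.8% of all genes. The median log2 difference was -0.28 against 0.02 over all genes, and without BxPC3 replicate 2 it was -0.22, with 1 gene higher and 3 lower. The BBS4 call was lost in a fit of BxPC3 and BxPC3-R alone (adjusted p = 0.0551) and without any 1 array of these groups other than BxPC3 replicate 2 (adjusted p = 0.0568 to 0.113).

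The change in AsPC1-R less that in BxPC3-R was positive for all 10 genes and called for 9, where 14.1% of all genes were called higher and 11.3% lower. It was largest for HEXA at 2.61 (SE 0.21) and LARP6 at 1.45 (SE 0.14), and smallest for MYO9A at 0.18 (SE 0.11). The median was 0.82 against -0.07 over all genes. Without BxPC3 replicate 2 it was 0.75 with 8 genes called, as THSD4 moved from 0.54 to 0.47 (adjusted p = 0.0512). The THSD4 call was also lost without AsPC1-R replicate 3 (adjusted p = 0.0531) or BxPC3-R replicate 2 (adjusted p = 0.0575).

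Between the parental lines, 7 of 10 genes were lower in AsPC1 and NEO1 was higher, where 22.9% of all genes were lower in AsPC1 and 27.7% higher. All AsPC1 arrays lay under all BxPC3 arrays for 6 of the 10, against 24.0% of all genes. The median was -0.46 against 0.11 over all genes. Without BxPC3 replicate 2, 5 genes were lower and NEO1 was higher, and the median was -0.39. This comparison and that of AsPC1-R use the same AsPC1 arrays, so low readings there enter both, and the values are set side by side only.

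When each gene was centred on its mean over the 12 arrays, the median over the 10 genes was -0.28, -0.29 and -0.34 on the AsPC1 arrays and 0.30, 0.14 and 0.32 on the AsPC1-R arrays. It was 0.14, 0.24 and 0.10 on the BxPC3 arrays and -0.06, -0.04 and -0.09 on the BxPC3-R arrays. The 4 groups therefore did not overlap except that AsPC1-R and BxPC3 did. The median of all genes centred in the same way lay between -0.06 and 0.09 on every array.

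Of the 40 other measured genes of the interval, 15 rose and 0 fell by limma in AsPC1-R, where 11.6% of all genes rose and 8.64% fell, and 25 did not pass the test. Their median log2 change was 0.13, and 24 of the 40 had a change above 0. PARP6, a mono-ADP-ribosyltransferase, rose by 1.03 (SE 0.12, adjusted p = 3.63e-05), from 9.12, 9.22 and 9.60 in AsPC1 to 10.41, 10.20 and 10.43 in AsPC1-R. EDC3, a scaffold of mRNA decapping, rose by 0.97 (SE 0.18, adjusted p = 0.00155), from 6.87, 6.60 and 7.46 to 7.88, 8.06 and 7.90. Neither gene had overlapping arrays. FAM219B rose by 0.75 (SE 0.14, adjusted p = 0.00114). Its means of 5.51 and 6.26 lie near the level read for the deleted CDKN2A, so the call and its size are uncertain. ARID3B, a DNA-binding protein, rose by 0.75 (SE 0.12, adjusted p = 0.000387) on its brighter probe set, and on its other probe set the value was -0.22, so its direction rests on the choice of probe set. These 40 genes were in view in the earlier work as well, and their counts are likewise a description.

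The rises lay mostly among genes with signal. Of the 22 other genes of the interval that were expressed, meaning a highest group mean at or over the median of all values, 12 rose and 0 fell, with a median of 0.30. A gene can pass this filter only through the group where it is high, so the filter is not independent of the changes counted. Over all 12328 expressed genes 16.3% rose and 11.1% fell. Of the 18 that were not expressed 3 rose, and their median was -0.14. HEXA-AS1, which is transcribed from the opposite strand at HEXA, is among these 3, at 0.51 (SE 0.14, adjusted p = 0.0224), but its means ran from 5.09 to 5.81 over the 4 groups, under the level of the deleted CDKN2A in BxPC3.

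**Figure D2:**
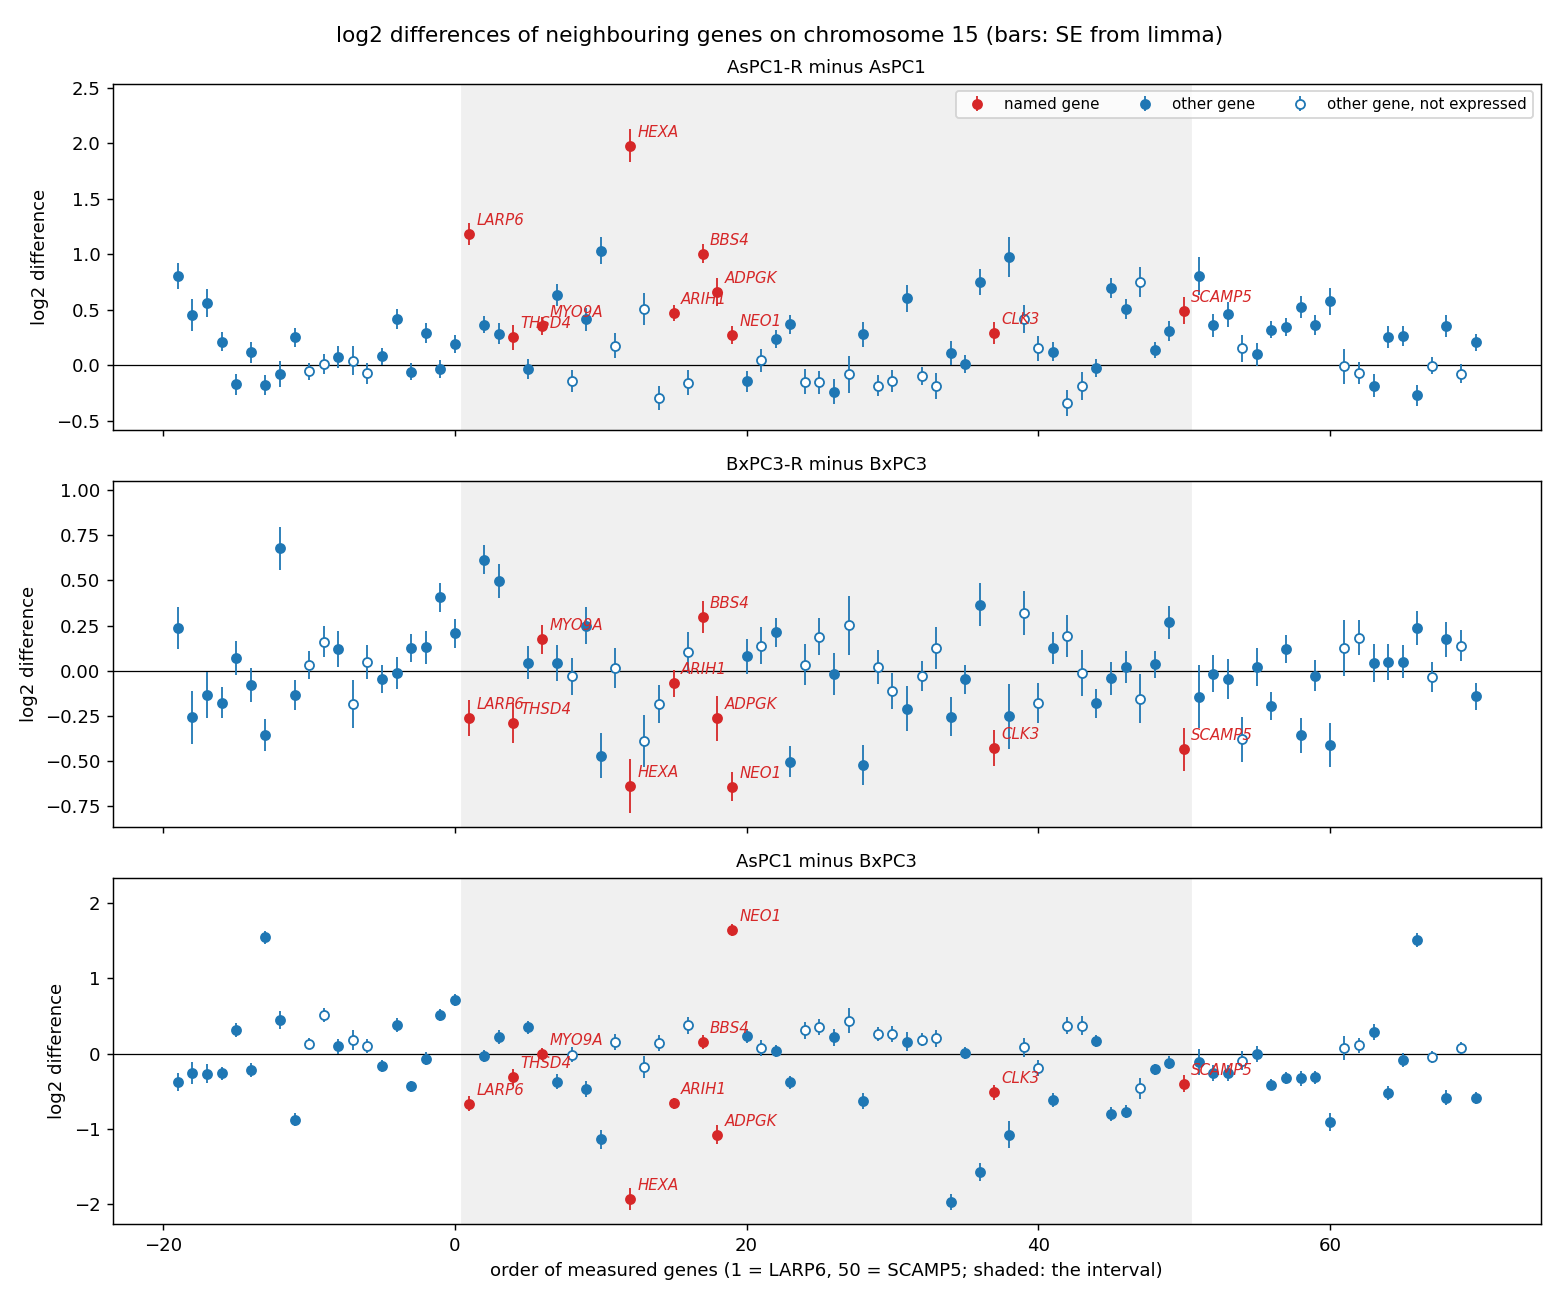
Log2 differences of 90 measured neighbours in chromosome order, from 20 genes before LARP6 to 20 after SCAMP5, for each derivative against its parent (upper 2 panels) and AsPC1 minus BxPC3 (lower panel); points are genes, bars are SE from limma, open points are genes that were not expressed, and the shaded stretch is LARP6 to SCAMP5. In the top panel the members (red) and many filled blue points lie above 0 inside and outside the shaded stretch, with HEXA highest at 1.98; in the middle panel 8 of the 10 members lie under 0, and the other genes of the interval lie on both sides of it (median 0.02).

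The same neighbours were mixed in BxPC3-R, where 9.75% of all genes rose and 11.0% fell. Of the 40, 4 rose and 3 fell, and the median change was 0.02. LRRC49 rose by 0.62 (SE 0.08, adjusted p = 7.93e-05) and THAP10 by 0.50 (SE 0.09, adjusted p = 0.00142). Among the falls were PML, which organises the nuclear bodies of that name, at -0.52 (SE 0.11, adjusted p = 0.00369), the immune checkpoint gene CD276 at -0.50 (SE 0.09, adjusted p = 0.000717) and PARP6 at -0.47 (SE 0.12, adjusted p = 0.0136). Without BxPC3 replicate 2 the counts were 2 and 2, so not all of the 3 falls named here kept their call. Which calls were lost is not given here. For the change in AsPC1-R less that in BxPC3-R, 14.1% of all genes were higher and 11.3% lower. Of the 40, 10 were higher and 1, LMAN1L, was lower, and without BxPC3 replicate 2 these counts were 10 and 0.

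Between the parental lines 9 of the 40 were higher and 13 lower in AsPC1, where 27.7% of all genes were higher and 22.9% lower. Of the 22 expressed ones 1 was higher and 12 lower, where 30.2% of all expressed genes were higher and 30.6% lower. The semaphorin gene SEMA7A differed most, at -1.97 (SE 0.11, adjusted p = 1.94e-09), with 6.90, 6.62 and 6.56 in AsPC1 and 8.47, 8.85 and 8.66 in BxPC3. It stayed low in AsPC1-R, at 6.78, 6.79 and 6.86, so its AsPC1-R change of 0.12 (SE 0.11, adjusted p = 0.494) did not pass the threshold. PARP6 stood at -1.14 (SE 0.12, adjusted p = 2.79e-06) and EDC3 at -1.08 (SE 0.18, adjusted p = 0.00021) between the lines, and the highest values, such as STOML1 at 0.44 (SE 0.17, adjusted p = 0.0412), belonged to genes that were not expressed. Without BxPC3 replicate 2, 3 of the 40 were higher and 11 lower.

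Some neighbours outside the interval rose in AsPC1-R as well, against 11.6% of all genes. Of the 20 measured genes before LARP6, 6 rose, 0 fell and 14 did not pass the test, with a median of 0.08 and 13 changes above 0. Of the 20 after SCAMP5, 9 rose, 0 fell and 11 did not pass, with a median of 0.26 and 14 changes above 0. In BxPC3-R 2 rose and 1 fell before the interval, and 0 rose and 3 fell after it. Over all genes 9.75% rose and 11.0% fell there.

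Rises outnumbered falls along most of the chromosome. Of 369 expressed genes on chromosome 15, 155 (42.0%) rose in AsPC1-R and 13 (3.5%) fell, with a median of 0.21. Some, such as PPCDC, passed the filter for expressed genes through AsPC1-R alone. Its means were 7.05 there and 6.21 to 6.35 in the other groups, where the cut-off was 6.55. The share of expressed genes that rose was the highest of 23 chromosomes (1 to 22 and X), ahead of chromosome 17 with 35.7%. With the whole interval left out, 135 of 337 rose (40.1%), 13 fell and the median was 0.18. When any 1 array was left out of the fit, 106 to 134 of these 337 rose. Beyond the 20 genes after SCAMP5, 53 of 96 expressed genes rose (55.2%) with a median of 0.37, and before the 20 genes ahead of LARP6, 67 of 210 did (31.9%) with a median of 0.11. With no filter, 55 of 156 rose and 4 fell in the former stretch. In the latter 70 of 330 rose and 15 fell. Over all genes 11.6% rose and 8.64% fell. Rises in AsPC1-R were thus also found outside the block, and no test here sets the 10 genes apart from the rest of the chromosome: their median of 0.48 is larger, but they were picked with such values in view.

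**Figure D3:**
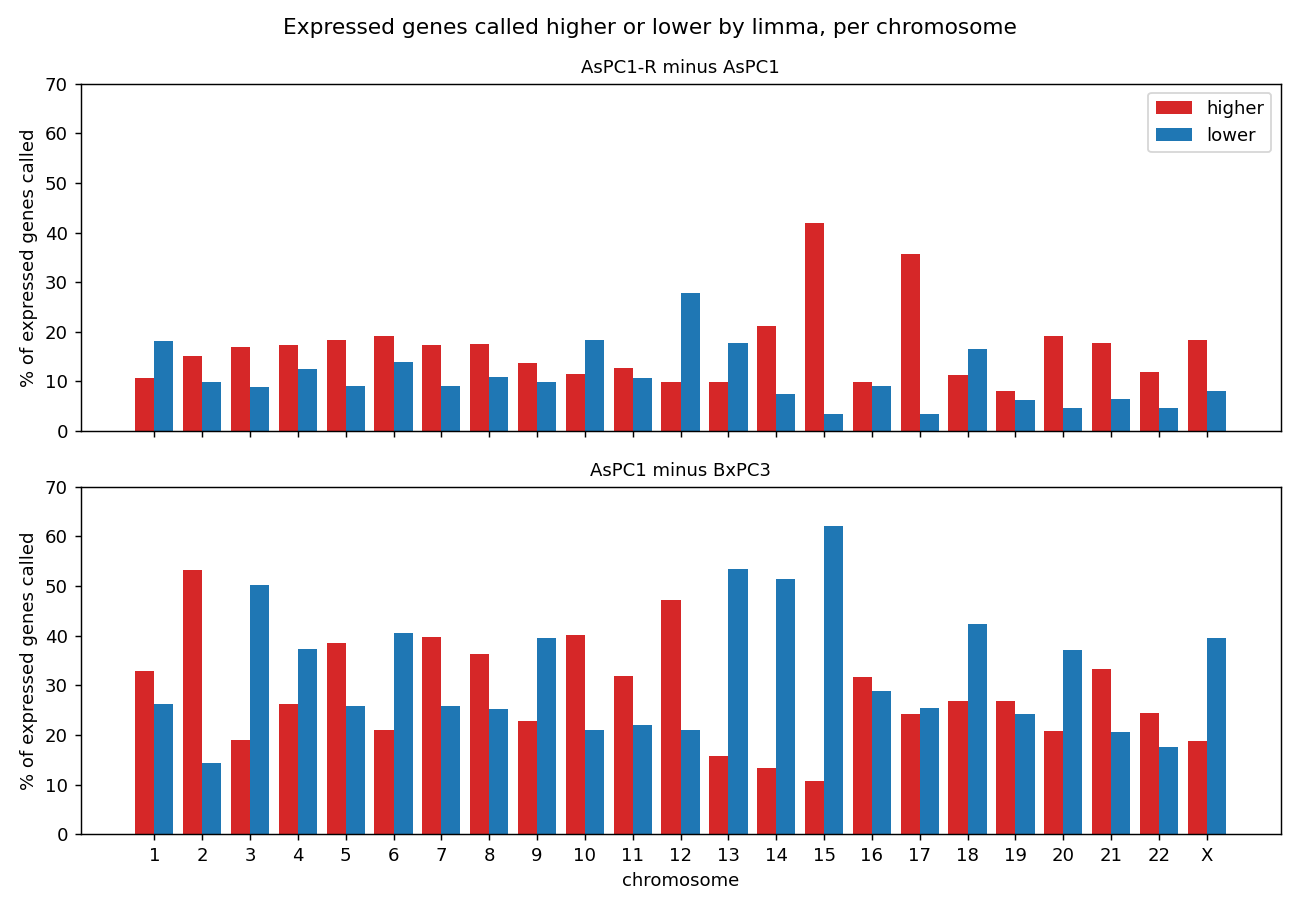
Percent of expressed genes on each chromosome (1 to 22 and X) called higher (red) or lower (blue) by limma at an adjusted p under 0.05, for AsPC1-R minus AsPC1 (top) and AsPC1 minus BxPC3 (bottom). Chromosome 15 has the tallest red bar in the top panel (42.0%) and the tallest blue bar in the bottom panel (62.1%); both panels use the same AsPC1 arrays.

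The parental lines differed along chromosome 15 too. Over all expressed genes 30.6% were lower and 30.2% higher in AsPC1 than in BxPC3. Of the 369 on chromosome 15, 229 (62.1%) were lower and 40 (10.8%) higher, with a median of -0.41. That was the largest share of lower genes among the 23 chromosomes. Without BxPC3 replicate 2, 219 (59.3%) were lower and 35 higher, and outside the interval 203 of 337 were lower and 33 higher. In BxPC3-R 36 rose (9.8%) and 66 fell (17.9%), with a median of -0.05, where 13.3% and 14.7% of all expressed genes did. For the difference between the lines 145 of 369 were higher and 26 lower, where 19.1% and 14.7% of all expressed genes were. The median for chromosome 15 was 0.27. Without that array 31 rose and 51 fell in BxPC3-R, and 128 were higher and 23 lower for the difference between the lines.

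A running median over 25 expressed neighbours shows where along the chromosome the values lay. In AsPC1-R it was above 0 in 315 of 345 windows, between 0.28 and 0.37 for windows centred from LARP6 to SCAMP5, and highest, at 0.49, for a window further along, centred on CSPG4P5. In BxPC3-R the windows centred in the interval lay between -0.14 and 0.08, and the lowest on the chromosome was -0.47, centred on SLC30A4. Between the parental lines 0 of 345 windows were above 0, and those centred in the interval lay between -0.47 and -0.03. The lowest was -1.20, centred on DUT, well before the interval. Neighbouring windows share genes and are not independent, so these are descriptions without a test.

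**Figure D4:**
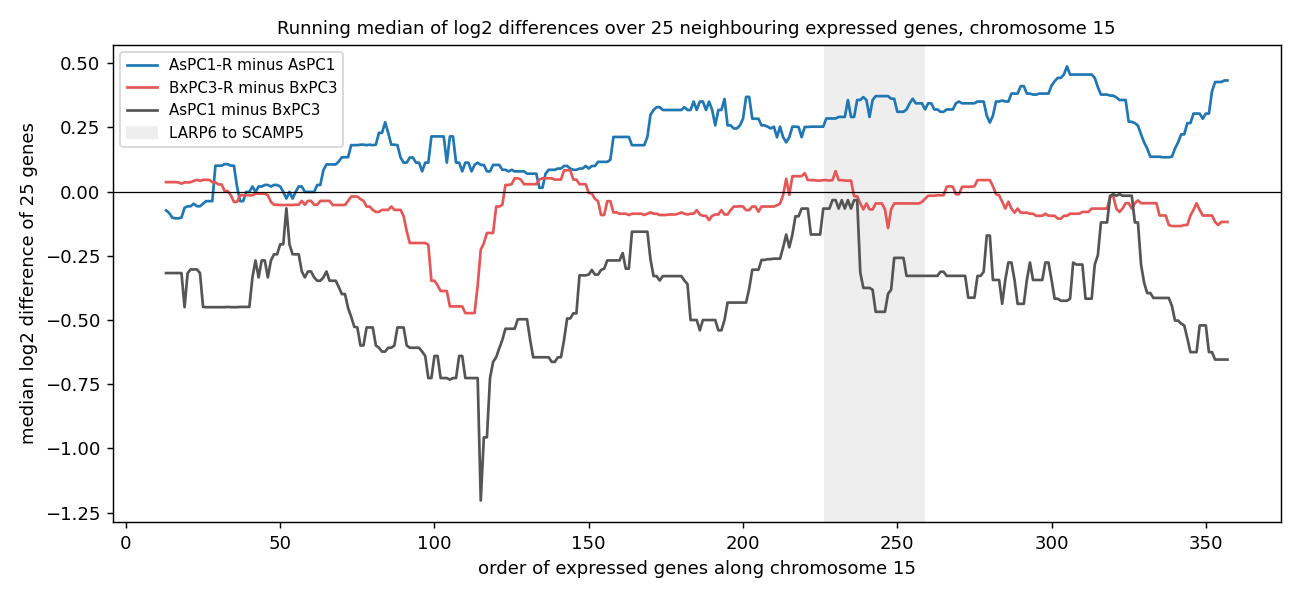
Running median of the log2 difference over 25 neighbouring expressed genes, plotted against the order of the 369 expressed genes along chromosome 15, for AsPC1-R against AsPC1 (blue), BxPC3-R against BxPC3 (red) and AsPC1 against BxPC3 (grey); the shaded stretch is LARP6 to SCAMP5. The blue line stays near 0.3 through the shaded stretch and reaches its highest value, 0.49, after it, while the grey line is under 0 throughout.

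The pathways to which the members belong were described from lists of partner genes, with the members left out. Of 15 other measured genes of ganglioside and glycan breakdown in the lysosome, the setting of HEXA, 2 rose and 2 fell in AsPC1-R, with a median of 0.06. Over all genes 11.6% rose and 8.64% fell there. MANBA, the lysosomal beta-mannosidase, rose by 0.51 (SE 0.09, adjusted p = 0.0012) and GLB1, the lysosomal beta-galactosidase, by 0.27 (SE 0.09, adjusted p = 0.042), while the fucosidase FUCA1 fell by 0.45 (adjusted p = 0.00362). In BxPC3-R, where HEXA was lower too, 6 of the 15 fell and 0 rose, with a median of -0.23. The falls were largest for GM2A, the activator protein that presents GM2 ganglioside to the enzyme, at -0.91 (SE 0.08, adjusted p = 3.2e-06), and NEU1, the lysosomal sialidase, at -0.79 (SE 0.10, adjusted p = 5.53e-05). Over all genes the BxPC3-R median was 0.02 and 11.0% fell. Between the parental lines PSAP, the saposin precursor, was higher in AsPC1 (adjusted p = 8.18e-10), at 10.71 against 6.15 in BxPC3 and 5.77 without BxPC3 replicate 2. The size is uncertain, since its BxPC3 level lies under that of the deleted CDKN2A. NEU1 was lower in AsPC1, at -2.55 (SE 0.10, adjusted p = 3.94e-11), with 4 of the 15 higher and 8 lower in all. Over all genes 27.7% were higher and 22.9% lower in AsPC1.

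For BBS4, 2 of 13 other genes of the BBSome and its partners rose in AsPC1-R and 3 fell, with a median of 0.07. Over all genes 11.6% rose and 8.64% fell there. The core subunit BBS2 rose by 0.44 (SE 0.10, adjusted p = 0.0048), and RAB3IP, which activates the small GTPase of ciliary vesicles, fell, at -1.04 (SE 0.08, adjusted p = 6.47e-07). In BxPC3-R BBS2 went the other way, at -0.69 (SE 0.10, adjusted p = 0.000136), and 2 rose and 4 fell. There 9.75% of all genes rose and 11.0% fell, and nothing is read from the small counts of these lists. Of 3 other secretory carrier genes, SCAMP2 rose in AsPC1-R by 0.70 (SE 0.09, adjusted p = 8.25e-05) and SCAMP1 fell in BxPC3-R, at -0.95 (SE 0.09, adjusted p = 3.38e-06). SCAMP2 lies in the same interval as SCAMP5, so it is no separate view of the family.

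Over all genes 11.6% rose and 8.64% fell in AsPC1-R, and 9.75% rose and 11.0% fell in BxPC3-R. Nothing is read from the small counts that follow. Of 10 other genes of glucose uptake and phosphorylation, the setting of ADPGK, 2 rose and 1 fell in AsPC1-R. They were the glucose transporter SLC2A1 at 0.63 (SE 0.10, adjusted p = 0.000389), the pyruvate kinase gene PKM at 0.42 (SE 0.10, adjusted p = 0.0107), which lies in the interval, and the isomerase gene GPI at -0.27 (SE 0.08, adjusted p = 0.0285). In BxPC3-R 1 rose and 4 fell, among them the hexokinase genes HKDC1 at -0.87 (SE 0.13, adjusted p = 0.000217) and HK2 at -0.66 (SE 0.12, adjusted p = 0.000863).

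The lists around the other members had few called genes each in AsPC1-R, where 11.6% of all genes rose and 8.64% fell, and nothing is read from these small counts. Of 17 ligands, co-receptors and relatives of NEO1, 1 rose and 2 fell, with netrin-4 (NTN4) at 1.18 (SE 0.08, adjusted p = 1.41e-07) and the netrin receptor UNC5B at -0.54 (SE 0.09, adjusted p = 0.000732). Of 16 genes around LARP6, collagen I and fibrillin, 1 was called higher and 3 lower, among the latter the La-related gene LARP1B at -0.40 (SE 0.08, adjusted p = 0.00191). The gene called higher, the collagen lysyl hydroxylase PLOD2, read 3.90 in AsPC1 and 4.67 in AsPC1-R, under the level of the deleted SMAD4 in BxPC3, so its rise is not shown to stand above background. Of 12 genes around ARIH1 and cullin neddylation 0 rose and 1 fell, CAND1 at -0.38 (SE 0.07, adjusted p = 0.00189). Of 16 SR proteins and their kinases 0 rose and 2 fell, CLK2 at -0.59 (SE 0.12, adjusted p = 0.00215) and SRSF3 at -0.34 (SE 0.10, adjusted p = 0.0239). In BxPC3-R the counts of genes that rose and fell were 2 and 0 for the NEO1 list, 3 and 2 for the LARP6 list, 2 and 0 for the ARIH1 list and 3 and 1 for the SR list. All these p-values are from limma, adjusted over all genes tested.

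The genes whose pattern was most like that of HEXA were mostly elsewhere in the genome. Over the 12 arrays and 12327 other expressed genes, Pearson's r with HEXA was highest for P4HA2 at 0.99, AMOTL1 at 0.98, CLIP4 at 0.98, SLC38A9 at 0.98 and ZC4H2 at 0.98, none of them on chromosome 15. Of the 100 genes with the highest r, 10 were on chromosome 15, which holds 2.98% of the genes ranked. Among other genes of the interval PARP6 stood at 0.96 (rank 16) and EDC3 at 0.94 (rank 56), above every member. Among the members r was highest for ADPGK, at 0.87 (rank 226), then LARP6 at 0.86 and ARIH1 at 0.84. It was 0.70 for CLK3, 0.68 for THSD4, 0.60 for SCAMP5, 0.45 for MYO9A, 0.40 for BBS4 and -0.24 for NEO1. The arrays share 4 groups, so r mostly follows the group means and is a description.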

How the data were processed

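Levels of RNA in 12 samples, 3 per group, were taken from the table of log2 values that the authors deposited. Affymetrix Expression Console and RMA (background correction, quantile normalization, summary over probes) made them, per the submitters' processing notes; their versions and the genome build are not given in the sources used. Of 33297 probe sets, the 19460 with 1 gene symbol in the platform annotation were kept, the 1754 with several and the 12083 with none were left out, and for 769 genes with several probe sets the one with the highest mean was used. RefSeq (GRCh38.p14), which matched 18388 of the 18417 genes, gave chromosomes and gene order alone.

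Group means were fitted with limma 3.58.1 (lmFit and eBayes, R 4.3.3) on all 12 arrays, with 8 residual and 5.47 prior degrees of freedom. Tests were two-sided, Benjamini-Hochberg adjustment ran over 18417 genes, the threshold was an adjusted p of 0.05, and SE is limma's. No gene was filtered out. The fit was tested on simulated data. Tables and figures were made with Python 3.11.15, numpy 2.4.6, pandas 2.3.3 and matplotlib 3.10.9.

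The members and lists were chosen with earlier results of these data known. Named were all 10 members, up to 4 other genes of the interval per direction and comparison with the largest called change, up to 2 called genes per direction and partner list, SMAD4, CDKN2A and the 5 genes most like HEXA; the text names some of them. CDH17, PPCDC and the centres of windows were named after their values were seen. The alternatives were quantile normalization once more, centring arrays on their medians, leaving out dim genes, eBayes with trend and robust, the mean over probe sets, only the groups compared, the replicate number as a block, and each array left out in turn. Counts of expressed genes alone, per chromosome and along chromosome 15 were added after seeing the data. The partner list of MYO9A is not reported here.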

Additional observations from a re-analysis of the deposited data

Results flagged for a closer look

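For these genes the change in AsPC1-R less the change in BxPC3-R passed limma's threshold, adjusted over all genes, so the derivatives of the 2 lines differed from their parents by unequal amounts. Among the members the log2 difference of changes was 1.45 for LARP6, 0.54 for THSD4, 2.61 for HEXA, 0.54 for ARIH1, 0.71 for BBS4, 0.92 for ADPGK, 0.91 for NEO1, 0.72 for CLK3 and 0.93 for SCAMP5. HEXA, LARP6, ADPGK, NEO1, CLK3, SCAMP5, THSD4 and ARIH1 had estimates above 0 in AsPC1-R and under 0 in BxPC3-R, while BBS4 was above 0 in both. Among other genes of the interval it was 1.50 for PARP6, 1.23 for EDC3, 0.91 for FAM219B, 0.89 for HEXA-AS1, 0.88 for CD276 and 0.80 for PML. LMAN1L ran the other way, at -0.53. HEXA-AS1 and LMAN1L read under 6.22 in all 4 groups, where BxPC3 reads the deleted CDKN2A, which leaves their calls and sizes uncertain.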

How the results depend on the processing

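Under these alternatives no member changed its sign in a called comparison, and of 750 values for single genes 22 calls were lost and 7 gained; the calls lost when 1 array was left out are given in the report. CLK3 in AsPC1-R was gained with dim genes left out (adjusted p = 0.0341), with arrays centred on their medians (0.039), with quantile normalization once more (0.0336), and without any 1 of AsPC1 replicate 1 (0.0415) and BxPC3 replicates 1 and 2 (0.0443 each). In a fit of the groups compared alone, the calls of NEO1 in AsPC1-R (adjusted p = 0.0883) and THSD4 between the parental lines (0.0564) were lost; that fit gives no value for the difference between the lines, which needs all 4 groups. Of 300 summary values, which were counts of calls and median changes, 287 stayed within the limits set for a move in size. The counts took calls in either direction together. With dim genes left out, the median over the other genes of the interval was 0.30 in AsPC1-R, 0.16 for the line difference and -0.29 for AsPC1 against BxPC3, since only 22 of the 40 remained. Between the parental lines it was 0.012 with arrays centred on their medians and 0.008 with quantile normalization once more, against 0.055; the cause was not tested. When 1 array was left out, the members' median in BxPC3-R ran from -0.37 (without BxPC3 replicate 1) to -0.22 (without BxPC3 replicate 2), with as few as 3 called (without BxPC3-R replicate 3), and the other genes called in the interval numbered as few as 4 (without BxPC3 replicate 2 or BxPC3-R replicate 2). The members' median for the difference between the lines ran from 0.748 without BxPC3 replicate 2 and 0.75 without AsPC1 replicate 2 to 0.849 without BxPC3 replicate 1. Between AsPC1 and BxPC3 it ran from -0.51 without AsPC1 replicate 2 to -0.39 without BxPC3 replicate 2, and 14 (without BxPC3 replicate 2) to 24 other genes of the interval were called, against 22. The labels' replicate numbers were not used to pair the samples in the main fit. The correlations of same-numbered arrays' deviations ran from -0.24 to 0.17, which cannot show whether the samples were paired. With the replicate block limma called 8 members in AsPC1-R and 5 in BxPC3-R, 9 for the line difference and 8 for AsPC1 against BxPC3, the same numbers as without it. Signal over background limits genes at levels up to 6.22.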
